A study of Mus musculus with 16 samples.

Results

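*Tfap2a*, *Tfap2b*, *Tfap2c*, *Tfap2d* and *Tfap2e* encode the AP-2 transcription factors, and their signals were followed here in tooth germs of the mouse embryo. These are 5 of the 19938 genes that had a probe set (the group of array probes read as 1 value) with a single gene symbol, and each member had 1 such probe set. The family was chosen by the log2 signals of these same samples, in which *Tfap2b* stood far apart between incisors and molars, so the differences of the members between tooth types are given as a description and with no test. Total RNA had been taken from lower incisors (4 samples), mandibular first molars (8 samples) and maxillary first molars (4 samples) of wild-type embryos on the C57Bl6 background at E14.5, and read on Affymetrix mouse gene 1.0 ST arrays. No group was treated, all groups share strain and age, and each sample is a pool of 4 whole germs, in which epithelium and mesenchyme were not separated. Samples are named by tooth type and by the number in their label. Where nothing says that pools of 1 tooth type came from separate litters, an error measures the spread between these samples, which may be in part technical.

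AP-2 proteins bind GC-rich DNA as homodimers or heterodimers through a shared basic and helix-span-helix region, and activate or repress nearby genes through cofactors. They are best known for their part in the surface ectoderm, the neural crest and the face. *Tfap2a* is needed for closure of the cranial neural tube and for facial growth, and its human counterpart is mutated in branchio-oculo-facial syndrome. *Tfap2b* acts in neural crest cells, kidney and the ductus arteriosus, and its human counterpart is mutated in Char syndrome, in which the face is also affected. *Tfap2c* is known for trophoblast and germ cells, *Tfap2d* for the developing brain and *Tfap2e* for the olfactory system. In the mouse assembly GRCm38.p6 *Tfap2a* lies at chr13:40713802-40738238, *Tfap2c* at chr2:172545678-172558622 and *Tfap2e* at chr4:126716003-126736269. *Tfap2d*, at chr1:19103022-19173948, and *Tfap2b*, at chr1:19208908-19238845, are neighbours with 34959 bases between them.

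The sequence that AP-2 dimers prefer can be written GCCNNNGGC, where N is any base, and it reads the same on both strands. It is shown here in the 250 bases before a gene's start (RefSeq, GRCm38.p6) for *Tfap2b*, the member that differed most between the tooth types, and for 3 genes treated below, which are *Kit*, listed as an AP-2 target, *Cited1*, a coactivator, and *Kctd15*, an inhibitor of AP-2. Each is written 5′ to 3′ on the strand of the gene, with matches to the motif in capitals. The window of *Tfap2b*, chr1:19211804-19212053 on the plus strand, lies inside the annotated span of the gene and holds no match. That of *Kit* is chr5:75574737-75574986 on the plus strand, that of *Cited1* chrX:102250777-102251026 and that of *Kctd15* chr7:34652933-34653182, both on the minus strand.
*Tfap2b*: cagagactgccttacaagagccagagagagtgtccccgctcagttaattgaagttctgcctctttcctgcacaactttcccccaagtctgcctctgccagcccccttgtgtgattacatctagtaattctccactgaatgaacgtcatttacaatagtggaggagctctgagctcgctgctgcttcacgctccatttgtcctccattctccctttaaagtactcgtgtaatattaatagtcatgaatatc
*Kit*: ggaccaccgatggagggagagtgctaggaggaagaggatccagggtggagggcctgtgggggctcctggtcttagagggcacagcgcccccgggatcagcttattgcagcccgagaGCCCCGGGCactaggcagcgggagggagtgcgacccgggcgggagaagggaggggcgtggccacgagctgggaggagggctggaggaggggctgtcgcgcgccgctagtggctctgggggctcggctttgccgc
*Cited1*: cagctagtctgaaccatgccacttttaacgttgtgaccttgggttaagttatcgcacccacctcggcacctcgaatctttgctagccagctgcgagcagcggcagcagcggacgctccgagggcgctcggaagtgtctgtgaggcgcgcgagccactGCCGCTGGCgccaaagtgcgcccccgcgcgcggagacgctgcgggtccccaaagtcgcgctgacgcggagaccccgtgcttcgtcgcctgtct
*Kctd15*: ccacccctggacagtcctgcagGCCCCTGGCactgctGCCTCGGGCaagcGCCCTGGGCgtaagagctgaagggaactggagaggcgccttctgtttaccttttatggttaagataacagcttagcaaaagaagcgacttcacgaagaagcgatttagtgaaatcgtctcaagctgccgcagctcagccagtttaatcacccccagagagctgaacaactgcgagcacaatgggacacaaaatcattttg
The match in *Kit* begins at base -134 from the start, that in *Cited1* at base -93, and the 3 in *Kctd15* at bases -228, -213 and -200. *Kit* has a further start in the table, whose window holds the same match at base -138. *Cited1* and *Kctd15* also have further starts, and the windows shown were taken because they hold the motif. The windows of *Egfr* and *Cited2*, a target and a partner also treated below, hold no match and are not shown. Over all genes measured here that have a window, 20.88% of 19177 windows (300 bases, from 250 before to 50 after a start) held the motif, and 23.57% of 15614 genes had it in at least 1 window. Of the AP-2 genes themselves 0 of 4 had it. Of the AP-2 partners 4 of 10 did (*Cited1*, *Crebbp*, *Ctnnb1* and *Kctd15*), as did 7 of 18 listed AP-2 targets (*Bcl2*, *Esr1*, *F2r*, *Igfbp5*, *Kit*, *Mcam* and *Tgfa*). A match of letters is a description of these windows and says nothing of binding.

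The median log2 signal of a sample lay between 6.80 and 6.99. By their values, though not by their labels, the samples form a pair of sets. Across all 35556 probe sets the median correlation of mandibular molars 5 to 8 was 0.9942 with the maxillary molars, but 0.9898 with mandibular molars 1 to 4. For lower incisors it was 0.9902 with mandibular molars 1 to 4, against 0.9861 for 5 to 8. The single correlations of molars 5 to 8 did not overlap (0.9924 to 0.9959 against 0.9844 to 0.9913). Those of the incisors did (0.9824 to 0.993 against 0.9831 to 0.991), so their place in a set is less firm. The first sample set below means the lower incisors together with mandibular molars 1 to 4, and the second means the other 8 samples. What sets them apart is not given in the sources used here, so a comparison of maxillary molars with lower incisors cannot be told apart from one of the sets, and differences within a set are given beside main values. The study discarded 1 incisor sample for high background without naming it, and all 4 were used here. Log2 signals of different genes are not set against one another, because each probe set has its own brightness.

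*Tfap2b* was the member whose level depended most on the tooth type, low in incisors and high in all molars. Its log2 signal in lower incisors 1 to 4 was 8.49, 7.60, 9.23 and 7.78. In mandibular molars 1 to 4 it was 9.90, 10.28, 10.43 and 10.39, and in mandibular molars 5 to 8 it was 10.92, 10.87, 10.75 and 10.83. Maxillary molars 1 to 4 read 11.03, 10.92, 11.05 and 11.00. Every molar sample lay above every incisor sample, and the incisors spread far more widely (mean 8.28 ± 0.75, SD, n = 4) than the mandibular (10.55 ± 0.36, SD, n = 8) or the maxillary molars (11.00 ± 0.06, SD, n = 4). The difference between mandibular molars and lower incisors was 2.27 on the log2 scale (standard error 0.28, 95% interval 1.67 to 2.87), that is 4.82-fold. It was 1.97 (1.22 to 2.73) with mandibular molars 1 to 4 alone, within the first sample set, and 2.56 (1.85 to 3.28) with mandibular molars 5 to 8 alone. Leaving out any 1 sample moved it between 2.04 and 2.59. In whole germs, fewer cells with *Tfap2b* RNA and less of that RNA per cell cannot be told apart.

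**Figure D1:**
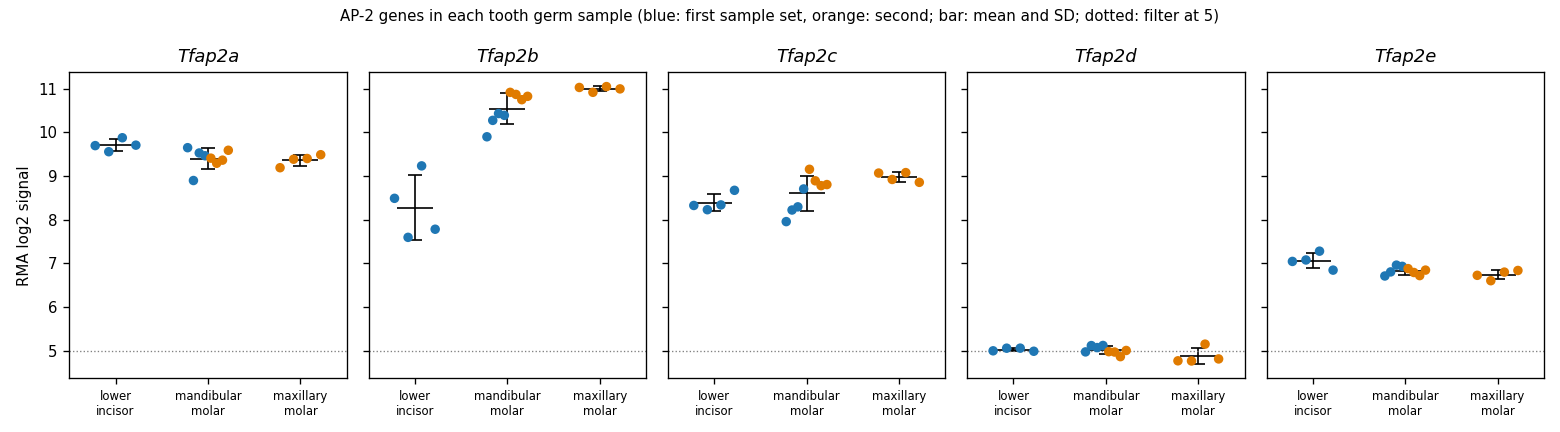
RMA log2 signal (y axis) of the 5 AP-2 genes in each sample, by tooth type (x axis). Points are samples, coloured by the sample set, and bars are the mean and SD. The 4 incisor samples of Tfap2b lie between 7.60 and 9.23, below all molars, while Tfap2d stays near the dotted filter level of 5 in all samples.

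The levels of *Tfap2b* in both molars lay close to each other. Mandibular molars were lower than maxillary molars by a log2 difference of -0.45 (standard error 0.17, interval -0.82 to -0.09), and the groups did not overlap, but only just, since the highest mandibular and the lowest maxillary sample both read 10.92 when rounded. Within the second sample set the difference was -0.16 (-0.28 to -0.04), and mandibular molars 1 to 4 alone lay -0.75 (-1.01 to -0.49) from the maxillary molars. Mandibular molars 5 to 8 were themselves above 1 to 4 by 0.59 (standard error 0.12, interval 0.33 to 0.85), with no overlap. The difference between the samples of 1 tooth type was thus as large as that between the molars of both jaws. Maxillary molars stood above lower incisors by 2.72 (standard error 0.31, interval 2.01 to 3.43), or 6.60-fold, across the sample sets. In the order of its levels, lower incisor, mandibular molar and maxillary molar, *Tfap2b* separated the first pair of neighbours far beyond their spread. The second pair was separated by little more than the spread of the mandibular molars.

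*Tfap2c* followed the sample sets more than the tooth types. Lower incisors 1 to 4 read 8.33, 8.23, 8.34 and 8.67, and mandibular molars 1 to 4 read 7.96, 8.22, 8.30 and 8.71. Mandibular molars 5 to 8 read 9.16, 8.89, 8.78 and 8.81, close to the 9.07, 8.92, 9.08 and 8.86 of maxillary molars 1 to 4. The first sample set thus lay between 7.96 and 8.71 and the second between 8.78 and 9.16, with no sample shared between these ranges. The difference between mandibular molars and lower incisors was 0.21 (standard error 0.20, interval -0.22 to 0.63) and the groups overlapped. It turned direction with the samples used, at -0.10 (-0.47 to 0.27) with mandibular molars 1 to 4 and 0.52 (0.25 to 0.78) with 5 to 8. Against maxillary molars the difference was -0.38 (-0.79 to 0.03) with all mandibular molars and -0.07 (-0.29 to 0.14) within the second set. Mandibular molars 5 to 8 exceeded 1 to 4 by 0.61 (standard error 0.16, interval 0.26 to 0.97), with no overlap. Maxillary molars were 0.59 (standard error 0.10, interval 0.35 to 0.83) above lower incisors, a comparison that lies across the sets.

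*Tfap2a* was slightly higher in incisors than in molars. Lower incisors 1 to 4 had log2 signals of 9.70, 9.56, 9.88 and 9.71. The mandibular molars had a lowest value of 8.90, a median of 9.44 and a highest of 9.65, and the maxillary molars read 9.19, 9.39, 9.40 and 9.49. Mandibular molar 2 was the lowest of all samples, and the remaining 7 mandibular molars began at 9.29. The difference between mandibular molars and lower incisors was -0.31 (standard error 0.12, interval -0.57 to -0.05) with overlapping groups. It was -0.32 (-0.69 to 0.04) with mandibular molars 1 to 4 and -0.30 (-0.50 to -0.09) with 5 to 8. Without mandibular molar 2, which is among 1 to 4, the value over the remaining mandibular molars was -0.24 (standard error 0.08). Maxillary molars lay below all incisors at -0.34 (standard error 0.09, interval -0.55 to -0.14), a comparison across the sample sets. Mandibular and maxillary molars differed by 0.03 (-0.22 to 0.29), and by 0.05 (-0.14 to 0.24) within the second sample set, less than the spread within either.

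The epithelial markers moved with *Tfap2a* in 1 sample. Of 13 genes listed for oral and dental epithelium 11 were measured, and their mean log2 signal was also lowest in mandibular molar 2, at 9.58. It ranged from 9.72 to 10.01 in lower incisors, from 9.58 to 10.35 in mandibular molars and from 9.84 to 10.21 in maxillary molars, and the summed linear signal from 14566.7 to 17947.2, from 13755.6 to 23894.9 and from 17180.1 to 21959.7. Over the tooth types the list had its lowest mean in incisors, where *Tfap2a* was highest. Of 8 measured genes for keratinizing epithelium 3 were lower in mandibular molars than in incisors, beside 2.18% of all probe sets tested. The mean of this list was 7.50 to 7.99 in incisors, against 6.59 to 7.79 in mandibular and 6.90 to 7.62 in maxillary molars. The part of these lists in the level of *Tfap2a* was not tested.

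*Tfap2e* showed the same order as *Tfap2a* at small differences. Its signals, from 6.60 to 7.28, lay around the median signal of a sample (6.80 to 6.99), and whether they exceed the background of the arrays was not tested. Lower incisors 1 to 4 read 7.05, 7.08, 7.28 and 6.85. The mandibular molars had a lowest value of 6.71, a median of 6.83 and a highest of 6.96, and the maxillary molars read 6.73, 6.60, 6.80 and 6.84. Mandibular molars lay at -0.23 (standard error 0.08, interval -0.40 to -0.06) from lower incisors with overlapping groups, and the value was -0.21 (-0.45 to 0.03) with mandibular molars 1 to 4 and -0.25 (-0.46 to -0.04) with 5 to 8. Maxillary molars were at -0.32 (standard error 0.10, interval -0.54 to -0.10) from the incisors without overlap, by a narrow gap between 6.84 and 6.85. This comparison also lies across the sample sets. Mandibular and maxillary molars differed by 0.09 (-0.05 to 0.22), and by 0.07 (-0.08 to 0.21) within the second sample set, less than their spread.

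*Tfap2d*, the chromosomal neighbour of *Tfap2b*, had no pattern like that of *Tfap2b*. In lower incisors its log2 signal was 5.03 ± 0.04 (SD, n = 4), in mandibular molars it was 5.01 ± 0.09 (SD, n = 8), and in maxillary molars it was 4.88 ± 0.19 (SD, n = 4). It exceeded the filter level of 5, below which signals were treated as low, in 7 of 16 samples, and was kept in the comparisons only through those. The differences were -0.01 (-0.14 to 0.11) between mandibular molars and incisors, 0.14 (-0.03 to 0.30) between mandibular and maxillary molars and -0.15 (-0.36 to 0.06) between maxillary molars and incisors, all with overlapping groups. Within the sample sets the first was 0.05 (-0.10 to 0.19) and the second 0.08 (-0.12 to 0.28). No statement on its use in tooth germs can be drawn from signals at this level. The other members were above 5 in all 16 samples.

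Counted with the thresholds that the study set for gene families, a fold change above 1.2 at an adjusted p under 0.1 (limma, Benjamini-Hochberg over all probe sets above 5 in at least 1 compared sample), 1 of the 5 members was called higher and 0 lower in mandibular molars against lower incisors, against 2.75% and 2.18% of all 29258 probe sets. Groups did not overlap for 1 member, against 3.69%. Between mandibular and maxillary molars 0 members were called in either direction, against 1.01% higher and 1.18% lower of 29068, and 1 had groups without overlap, against 4.1%. Between maxillary molars and lower incisors, which lie in different sample sets, 2 members were called higher and 2 lower, against 14.4% and 13.4% of 29075, and 4 did not overlap, against 32.3%. The comparisons share their mandibular or incisor samples. Because the same contrasts chose the family, nothing is read from these counts.

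**Figure D2:**
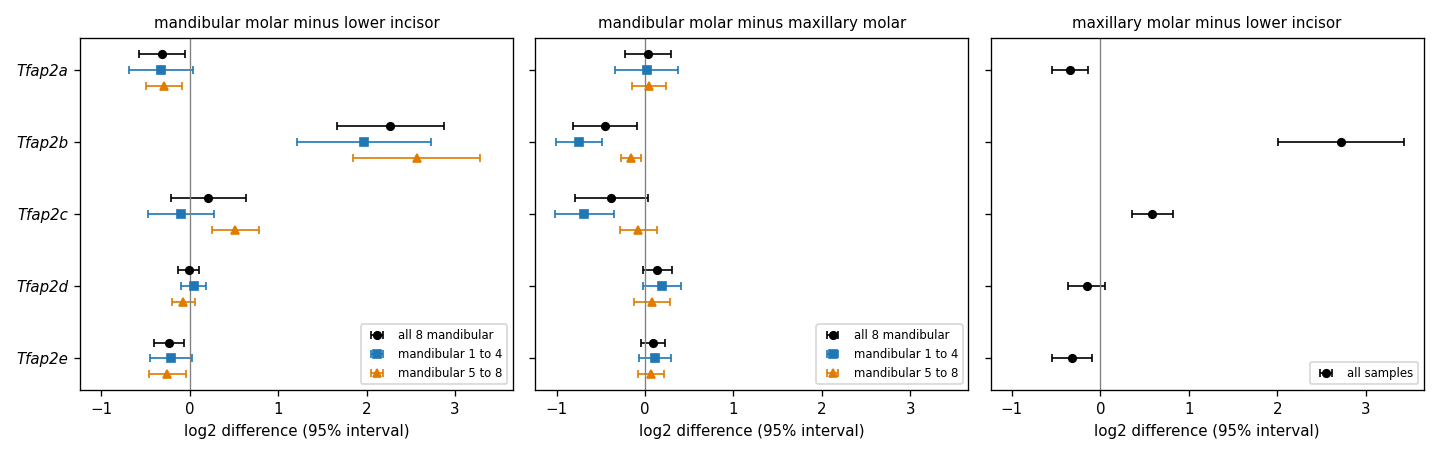
Log2 difference of each AP-2 gene (x axis, with 95% interval) between tooth types, 1 panel for each comparison, with all mandibular molars (black) and with mandibular molars 1 to 4 (blue) or 5 to 8 (orange) alone. Tfap2b lies between 1.97 and 2.56 above the lower incisors whichever mandibular molars are used, while Tfap2c moves from -0.10 to 0.52.

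AP-2 proteins work with cofactors, and 15 partner genes were listed, of which 14 were measured and tested. In mandibular molars against lower incisors 2 were higher and 1 lower, beside 2.75% and 2.18% of all probe sets tested. The median log2 difference of the 14 was 0.12, beside -0.02 over all probe sets. Against maxillary molars 0 were higher and 1 lower, beside 1.01% and 1.18%. *Cited1*, which bridges AP-2 to the acetyltransferases CBP and p300, rose in steps over the tooth types, from 7.80, 7.95, 8.05 and 8.30 in lower incisors 1 to 4 to between 8.45 and 8.81 in mandibular molars (median 8.71) and 9.53, 9.20, 9.24 and 9.11 in maxillary molars. None of the groups overlapped. Its mandibular molar signal exceeded that of incisors by 0.64 (standard error 0.10, limma adjusted p = 0.00248), and 0.69 and 0.58 higher with mandibular molars 1 to 4 and 5 to 8. It was also the 1 partner lower in mandibular than in maxillary molars, by -0.61 (standard error 0.09, limma adjusted p = 0.00524), and by -0.67 within the second sample set. *Cited1* thus had the same order of tooth types as *Tfap2b*, and, unlike *Tfap2b*, it was not higher in mandibular molars 5 to 8 (8.60 ± 0.15, SD, n = 4) than in 1 to 4 (8.71 ± 0.13, SD, n = 4).

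Its relative *Cited2* had 9.62, 9.86, 9.68 and 10.17 in lower incisors, and 10.19 to 10.55 in mandibular molars (median 10.36). The difference was 0.52 (standard error 0.10, limma adjusted p = 0.0109). It was no longer called with mandibular molars 1 to 4 alone, at 0.45, within the first sample set. Against maxillary molars, at 10.53 to 10.66, *Cited2* did not pass (-0.22, limma adjusted p = 0.14). *Cited4*, at a difference of -0.10 from incisors, did not pass either.

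The inhibitors showed small values in the other direction. KCTD15 and KCTD1 are known to bind AP-2 proteins and to repress their activity. *Kctd15* read 9.28, 9.26, 9.11 and 9.36 in lower incisors and 8.86 to 9.05 in mandibular molars (median 8.97), without overlap and with a difference of -0.29 (standard error 0.06, limma adjusted p = 0.0138). Without lower incisor 4 the value was -0.26 and was not called, nor was the -0.25 with mandibular molars 1 to 4 alone. *Kctd1* had a difference of -0.22 and missed the threshold (standard error 0.07, limma adjusted p = 0.115), with overlapping groups. Between mandibular and maxillary molars neither passed, at -0.07 for *Kctd15* and 0.10 for *Kctd1*. The other partners, among them the acetyltransferase genes *Ep300* and *Crebbp* and the oncogene *Myc*, were not called in either comparison, and the median over the 14 between the molars was -0.05, beside 0.02 over all probe sets.

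Of 26 genes listed as AP-2 targets 24 were measured and 23 passed the filter at 5 in each comparison. Against lower incisors 2 were higher and 2 lower in mandibular molars, with a median of 0.00, and against maxillary molars 0 were higher and 1 lower, with a median of 0.01. Over all probe sets tested 2.75% were called higher and 2.18% lower against incisors, and 1.01% and 1.18% against maxillary molars. The list was drawn from other tissues and from the face, and both of its largest differences belong to aristaless-like homeobox genes of the facial mesenchyme. *Alx1* read 11.58, 10.99, 11.05 and 11.70 in lower incisors, 6.66 to 7.21 in mandibular molars (median 6.97) and 8.70, 8.76, 8.55 and 8.38 in maxillary molars. It was lower in mandibular molars than in incisors by -4.41 (standard error 0.14, limma adjusted p = 3.07e-09), with -4.43 within the first sample set. It was lower than in maxillary molars by -1.68 (standard error 0.11, limma adjusted p = 5.99e-06), with -1.66 within the second. *Alx4* was lower than in incisors by -2.53 (standard error 0.30, limma adjusted p = 0.000356), from 9.71 to 10.31 in incisors to 6.75 to 8.71 in mandibular molars, with -2.44 within the first sample set. Maxillary molars read 6.94, 7.15, 6.97 and 6.85, and the difference of *Alx4* between the molars did not pass (0.47, limma adjusted p = 0.401). Both genes were thus high in incisors, where *Tfap2b* was low, and in maxillary molars *Alx1* lay above its level in mandibular molars while *Alx4* overlapped with it.

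The targets that were higher were *Egfr* and *Kit*. *Egfr*, the receptor of epidermal growth factor, read 9.97, 9.81, 9.60 and 9.71 in lower incisors and 10.47 to 10.75 in mandibular molars (median 10.61), a difference of 0.85 (standard error 0.08, limma adjusted p = 3.87e-05) that held within both choices of mandibular molars, at 0.79 and 0.91. Maxillary molars, at 10.46 to 10.61, overlapped with the mandibular ones. *Kit*, the receptor of stem cell factor, had 8.02, 7.97, 8.04 and 8.14 in incisors and 8.12 to 8.74 in mandibular molars (median 8.53), with an overlap through mandibular molar 2 at 8.12. The difference was 0.44 (standard error 0.09, limma adjusted p = 0.0192), and the 0.34 with mandibular molars 1 to 4 alone was not called. *Kit* was at 8.74 to 8.92 in maxillary molars, and its difference of -0.34 between the molars missed the threshold (limma adjusted p = 0.108). The epithelial targets *Krt5*, *Krt14*, *Cdh1* and the remaining listed genes were not called in either comparison. *Krt5*, *Krt14* and *Cdh1* also stand in the list of oral and dental epithelium, and *Erbb3* in that of Schwann cells.

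**Figure D3:**
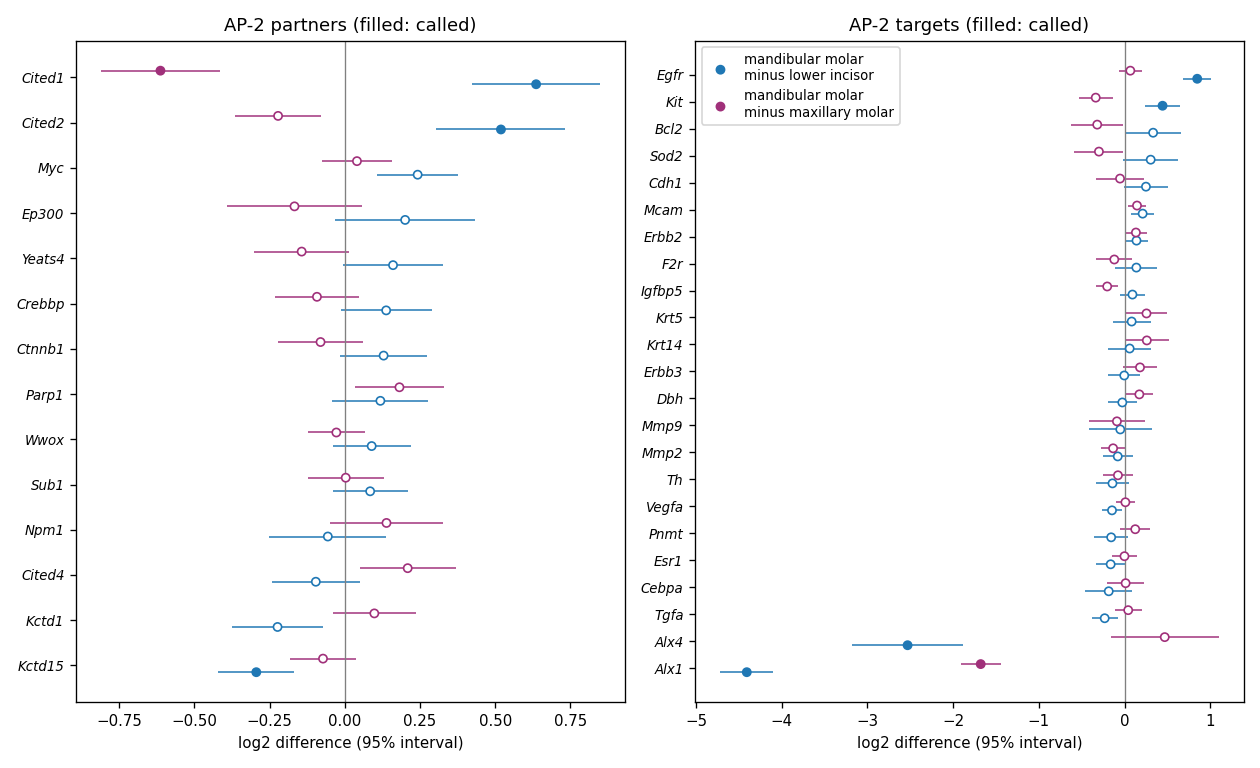
Log2 difference (x axis, with 95% interval) of the 14 partner and 23 target genes tested, in mandibular molars against lower incisors (blue) and against maxillary molars (purple). Filled points passed the thresholds for families, which 3 partners and 4 targets did against incisors and 1 of each against maxillary molars, and the axes of the panels differ.

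The members did not vary as a unit over the 16 samples. The Pearson correlation of *Tfap2b* with *Tfap2c* was 0.58 (Spearman 0.83). It was 0.47 within tooth types, each centred on its own mean, and 0.13 within 4 sets of samples centred likewise (lower incisors, mandibular molars 1 to 4 and 5 to 8, maxillary molars). *Tfap2b* had a correlation of -0.53 with *Tfap2a*, which became 0.20 within tooth types, and of -0.57 with *Tfap2e*, which became 0.52. That of *Tfap2a* with *Tfap2e* was 0.57, and 0.22 within tooth types. For *Tfap2b* with *Tfap2a* and with *Tfap2e* the pooled value and that within tooth types thus had opposite signs. All samples share the normalization of their arrays, and the correlations are given as a description.

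Among 17327 other genes above 5 in at least 1 sample, those most like *Tfap2b* were *Mical2*, an actin-oxidizing enzyme (r = 0.95), *Pdzd2*, *Kcna4*, a potassium channel subunit, *Fgf14*, an intracellular FGF homologous factor, and *Phlpp2*, an Akt phosphatase, with correlations of 0.94 to 0.95. Within tooth types these fell to between 0.48 and 0.75, and without lower incisors 2 and 4, the samples farthest from the median of *Tfap2b*, they were 0.87 to 0.96. *Mical2* had 7.65 on average in lower incisors, 8.50 in mandibular and 8.63 in maxillary molars, so that its range was far smaller than that of *Tfap2b*. For *Tfap2c* the genes were *Ank*, a transporter gene of pyrophosphate control, *Prrx2*, a homeobox gene of the dental mesenchyme list, *Nfe2l1*, *Sema3b* and *Ehd3*, at 0.94 to 0.96. Their correlations were 0.91 to 0.94 within tooth types and 0.77 to 0.89 within the 4 sets of samples. All 5 had higher means in mandibular molars 5 to 8 than in 1 to 4, as *Ehd3* with 9.12 and 8.06. The genes most like each member were picked by correlation over these same samples. Shared extremes and shared differences between groups thus follow in part from that choice, here and below.

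The likeness to *Tfap2a* was that of *Trp73*, a relative of p53 (r = 0.89), *Them5*, *Mapkapk3*, *Fads2b* and the Wnt receptor gene *Fzd10*, at 0.87 to 0.89. Within tooth types the correlations were 0.79 to 0.87, and 4 of the 5 genes had their lowest value, like *Tfap2a*, in mandibular molar 2. Without that sample and lower incisor 3 the correlations were 0.75 to 0.89. *Them5* fell from 8.59 on average in incisors to 7.62 in mandibular molars. For *Tfap2e* they were *Cacng2*, *Olfr645*, *Krtap3-1*, *Mir320* and *Nodal*, at 0.94 to 0.96 and 0.86 to 0.94 within tooth types. All 5 had their highest value in lower incisor 3 and their lowest in maxillary molar 2, as *Tfap2e* had. They are genes of unlike function, and their ranges over the samples were small, as was that of *Tfap2e*. *Tfap2d* was not above 5 in all samples and was not compared in this way.

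**Figure D4:**
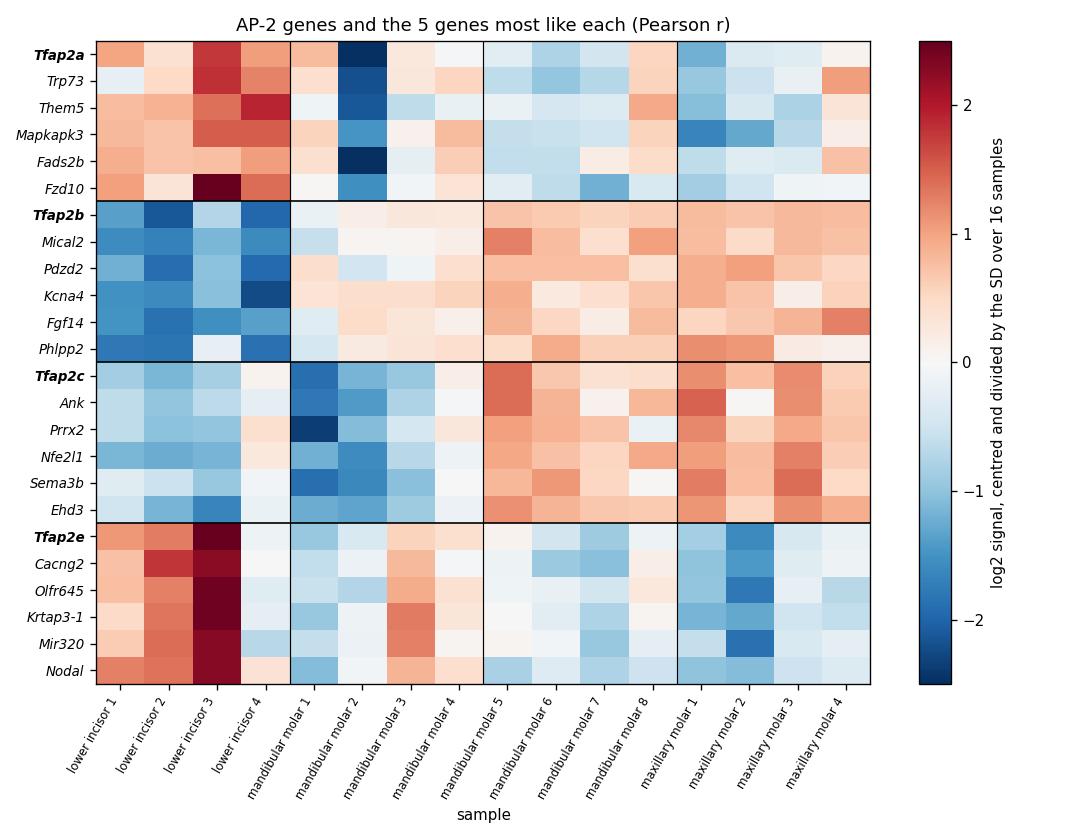
Log2 signal of 4 AP-2 genes (bold) and of the 5 genes most like each by Pearson correlation over 16 samples, centred on the mean of the gene and divided by its SD over the samples (colour, with values beyond the ends of the scale in the end colours). Columns are samples and vertical lines part lower incisors, mandibular molars 1 to 4 and 5 to 8, and maxillary molars. The block of Tfap2b changes between incisors and molars, that of Tfap2c between mandibular molars 4 and 5, and mandibular molar 2 stands out in that of Tfap2a.

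Markers of the tissues in and around a tooth germ were read in the same samples. Both tissues of a germ were read in all groups, with *Krt5* and *Krt17* of the epithelium at means of 11.48 to 12.46 and *Prrx1* and *Col1a1* of the mesenchyme at 11.85 to 12.19. Between mandibular molars and lower incisors, where *Tfap2b* differed, 2 of 11 epithelial genes were higher, 2 of 9 mesenchymal genes were higher and 1 lower, and 3 of 8 genes of keratinizing epithelium were lower. All 6 cartilage genes were lower, as were 4 of 8 muscle genes, 2 of 8 neuron genes (with 1 higher) and 2 of 5 genes of Schwann cells and crest glia, while 0 of 5 melanocyte and 0 of 5 endothelial genes were called. Over all probe sets tested 2.75% were called higher and 2.18% lower in this comparison. With 1 sample left out the epithelial count ranged from 0 (without lower incisor 1 or mandibular molar 5, 6 or 7) to 5 (without mandibular molar 2), the muscle count from 2 (without lower incisor 2 or 3) to 6 and the cartilage count from 4 to 6. The lower neuron genes were then 1 to 2 (1 without lower incisor 1, 2, 3 or 4 or mandibular molar 5, 6 or 8), and the Schwann cell and glia genes 0 to 2 (0 without lower incisor 3 or 4 or mandibular molar 5 or 8). The counts of mesenchyme and keratinizing epithelium stayed as given. For the mesenchymal list the mean lay at 10.66 to 10.74 (incisors), 10.69 to 10.90 (mandibular molars) and 10.79 to 10.87 (maxillary molars), and the summed signal at 18096.6 to 18403.8, 17870.4 to 20345.9 and 18474.8 to 19719.7. Its genes went both ways, as *Pax9* at 1.14 and *Col3a1* at -0.38 against incisors. The mean of the cartilage list was 7.40 to 8.75 in incisors, 6.93 to 7.15 in mandibular and 6.85 to 6.98 in maxillary molars, and its summed signal 1260.1 to 3216.7, 911.0 to 1095.2 and 889.2 to 944.1.

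Between the molars 6 of 8 muscle genes were higher in the mandibular ones, and with 1 sample left out 3 (without maxillary molar 1 or 2) to 7. Over all probe sets tested 1.01% were called higher and 1.18% lower there. The mean of the muscle list was 8.81 to 8.99 in incisors, 8.13 to 9.02 in mandibular molars 1 to 4, 7.66 to 8.39 in 5 to 8 and 6.81 to 7.31 in maxillary molars. Over the same sets the mean of the neuron list was 7.11 to 7.34, 7.12 to 7.28, 6.79 to 7.14 and 6.70 to 6.83. In maxillary molars, where *Tfap2b* was highest, the muscle list was lowest. The muscle mean of 9.02 came from mandibular molar 2, beside 8.17, 8.13 and 8.29 in mandibular molars 1, 3 and 4. The neuron genes went both ways between the molars, with a median difference of 0.01, 2 genes higher in mandibular molars (*Nefl* at 2.22 and *Nefm* at 0.97) and 1 lower (*Gap43* at -0.45), and with 1 sample left out these counts were 1 to 2 and 0 to 1. In mandibular molars 5 to 8 *Tfap2b* and *Tfap2c* were higher than in 1 to 4. The mean of the epithelial list was 10.14 to 10.35 in 5 to 8, against 9.58 to 10.21 in 1 to 4. For the endothelial list it was 9.74 to 9.86 against 9.55 to 9.75, and the ranges of both lists overlapped. The 9.58 belongs to mandibular molar 2, beside 10.20, 10.04 and 10.21 in mandibular molars 1, 3 and 4. The mean of the Schwann cell and glia list was 7.56 to 7.72 in incisors, 7.25 to 7.66 in mandibular and 7.25 to 7.50 in maxillary molars. Melanocyte genes had a mean of 5.68 to 5.87 in all samples. The part of the tissue lists in the levels of the AP-2 genes was not tested.

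**Figure D5:**
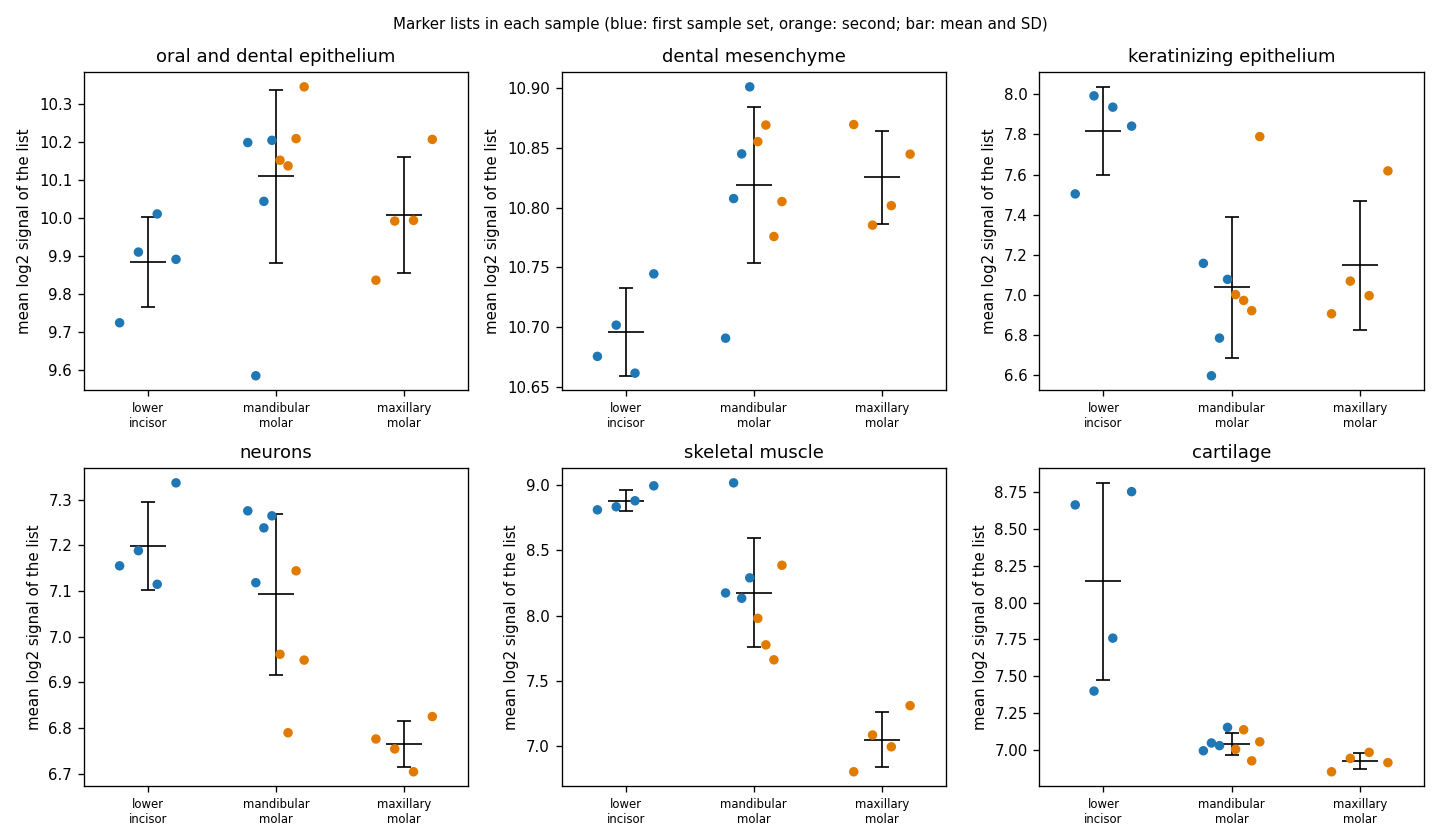
Mean log2 signal of 6 marker lists (y axis, on a scale of its own in each panel) in each sample by tooth type (x axis). Points are samples, coloured by the sample set, and bars are the mean and SD. The means of cartilage and keratinizing epithelium are highest in lower incisors, muscle is lowest in maxillary molars at 6.81 to 7.31, and mandibular molar 2 is lowest in the epithelial list at 9.58.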

How the data were processed

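Each sample was RNA of 4 pooled tooth germs on 1 array. The authors deposited log2 signals made by RMA in Affymetrix Expression Console 1.1 for 35556 probe sets (a background correction, a quantile normalization and a median polish), and these were used as they stand. Gene symbols came from the platform annotation, updated to GRCm38.p6 (21789 probe sets with 1 symbol, 1621 with several and 12146 with none), and a gene with several probe sets was read by the one of highest mean. For each pair of tooth types, probe sets above 5 in at least 1 compared sample were fitted with limma 3.58.1 (lmFit, then eBayes; R 4.3.3) on those samples alone, with no block and Benjamini-Hochberg adjustment. The procedure was tested on simulated data. Arrays give no read depth, and their number limits the precision.

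The members and all gene lists were chosen with earlier results of these data known. Named were all members, the called partners and targets of largest difference (up to 10 a comparison) with *Cited1*, *Kctd1* and *Kctd15*, the 5 genes most like each member, and the 2 marker genes of highest mean per list. *Erbb3*, *Cdh1*, *Krt14*, *Cited4*, *Ep300*, *Crebbp*, *Myc*, *Pax9*, *Col3a1*, *Nefl* and *Nefm* were named after their values were seen. Alternatives were a filter at 6 or none, quantile and cyclic loess normalization, the methods' t-test, 1 fit over the 3 tooth types, either numbered set of mandibular molars alone, a replicate block and each sample left out. Some listed genes are not reported here.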

Additional observations from a re-analysis of the deposited data

Results flagged for a closer look

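*Tfap2d* in maxillary molar 3 had a log2 signal of 5.15, apart from the 4.77 to 4.81 of the other maxillary molars. The gap to the nearest sample was 0.879 of the whole range, above the critical value of 0.829 for 4 samples. Of 39 groups of 4 or 8 samples tested in this way, over the members and the named partners and targets, this was the only 1, and about 5% would be expected by chance. All these values lie near the filter level of 5.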

How the results depend on the processing

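All 255 values of the members under the alternatives, single samples left out included, moved by less than 1 SD between replicates, and none changed a called direction. That SD was pooled over all mandibular molars wherever they were compared. It thus holds the gap between 1 to 4 and 5 to 8, and this measure can hardly show a change between those sets. For *Tfap2b* against maxillary molars the value of -0.45 became -0.75 with 1 to 4 and -0.16 with 5 to 8, beside an SD of 0.30. The uncalled value of *Tfap2c* against incisors turned to -0.10 with mandibular molars 1 to 4. For *Tfap2b* the difference between mandibular and maxillary molars ranged from -0.51 to -0.36 with 1 sample left out, and that of *Tfap2c* between mandibular molars and incisors from 0.13 to 0.30. The mean of all probe sets of a gene was not run because each member has 1.

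Of the values of the named partners and targets, 242 stayed called or stayed uncalled as in the report, 7 lost a call and 3 gained it. The 242 include values of *Kctd1* in both comparisons and of *Kctd15* between the molars, which had no call to lose. *Kctd1* was called lower against incisors with quantile normalization (-0.28), cyclic loess (-0.28) and mandibular molars 5 to 8 alone (-0.27). Partners called higher against incisors, 2 in the report, were 1 with the replicate block or mandibular molars 1 to 4 alone, and 2 to 3 with 1 sample left out. Partners called lower there, 1 in the report, were 2 with quantile normalization, cyclic loess or mandibular molars 5 to 8 alone, 0 with the replicate block or 1 to 4 alone, and 0 to 1 with 1 sample left out (0 without lower incisor 4). Against maxillary molars 3 partners in place of 1 were called lower with the block or 1 to 4 alone. Targets called higher against incisors, 2 in the report, were 1 with the block or 1 to 4 alone, 6 with 5 to 8 alone and 2 to 3 with 1 sample left out. Against maxillary molars 1 target in place of 0 was called higher with the block or 1 to 4 alone. Targets called lower there, 1 in the report, were 2 with a filter above 6, all tooth types in 1 fit or 5 to 8 alone, 5 with the block or 1 to 4 alone, and 1 to 2 with 1 sample left out (2 without mandibular molar 2 or 8). By the methods' t-test after Benjamini-Hochberg adjustment all these counts were as in the report. The sets of 4 mandibular molars and the fits with 1 sample left out hold fewer samples, and counts both rose and fell in them. The cause of the changes was not tested.

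Whether equal replicate numbers in the labels mark paired samples cannot be settled by the values, with only 4 candidates for each sample. Same-numbered samples had correlations of their deviations of 0.09 to 0.67 between incisors and mandibular molars, -0.07 to 0.24 between incisors and maxillary molars and 0.01 to 0.39 between the molars, and in each pair of groups 1 of 4 samples correlated best with its own number. With the replicate block, numbers 5 to 8 occur in 1 group only, so the difference of *Kit* (0.34), *Cited2* (0.45) and *Kctd15* (-0.25) equals that with mandibular molars 1 to 4 alone, and none was called.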
